A study of Homo sapiens with 22 samples.

Results

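NEDD9 and 6 other genes of the focal adhesion scaffold were followed through the RNA-seq of MDA-MB-231 cells, a triple-negative breast cancer (TNBC) line, after treatment with either of a pair of ligands of the glucocorticoid receptor (GR). The members were the 7 listed genes (the Cas family scaffolds NEDD9, BCAR1 and EFS, the kinases PTK2 and SRC, and the adaptors CRK and PXN), each found once among the 20668 gene symbols of every sample. Cells grown in steroid-stripped serum received vehicle, 100 nM dexamethasone (Dex, a synthetic glucocorticoid) for 2 h or 4 h, or 10 μM CpdA (a selective GR modulator) for 2 h or 4 h, with 2 biological replicates in each of the 5 groups. All 10 samples came from the same line, with no genetic change in any group. The labels gave no time point for the vehicle samples, but the file headers carry 2 h for replicate 1 and 4 h for replicate 2. Both were used as the same vehicle group, in which time and replicate cannot be told apart. Levels are in RPKM, reads scaled to transcript length and to the mapped reads of the sample, so that genes can be compared per length. A gene is said to have risen or fallen where limma gave a Benjamini-Hochberg adjusted p-value under 0.05 over the 12713 genes tested, and changes are log2 fold changes on the log2(RPKM + 0.1) scale.

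Cas proteins carry no enzymatic activity of their own. They dock onto focal adhesion kinase, the product of PTK2, where integrins meet the actin cytoskeleton, and their substrate domain is then phosphorylated on many tyrosines by SRC family kinases. The phosphorylated domain recruits CRK, which brings in exchange factors for small GTPases and so drives membrane protrusion and migration. Paxillin, encoded by PXN, is a further adaptor of the same complex that binds focal adhesion kinase and, once phosphorylated, CRK. NEDD9 is known in breast cancer for its part in invasion and metastasis, and also as an activator of the mitotic kinase AURKA. Glucocorticoids act through GR, which as a dimer binds the palindromic glucocorticoid response element (GRE) and can also act through AP-1 sites. For MDA-MB-231 cells the paper proposes that AP-1 mainly makes chromatin accessible to GR under Dex and does not tether it.

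The promoters of the Cas family genes are shown because GR, the receptor that both ligands bind, is a DNA-binding protein. Whether CpdA acted on these genes through GR was not tested here. The paper reports that GR with CpdA bound chromatin at sites that overlapped little with those under Dex, and not at GREs. Citing earlier studies, it also proposes that CpdA might work by way of a different receptor or factor. NEDD9 lies on the minus strand of chromosome 6 (GRCh37, positions 11183531 to 11382581) and BCAR1 on the minus strand of chromosome 16 (GRCh37, 75262079 to 75301951). RefSeq (GRCh38.p14) gave 12 promoters for 5 of the 7 members, searched over the 250 bases before each start, on both strands. Distal NEDD9 promoter 1 is at chr6:11382349-11382598, proximal NEDD9 promoter 3 at chr6:11232669-11232918, and BCAR1 promoter 1 at chr16:75268008-75268257, all on the minus strand and written here 5′ to 3′ with the motif matches in capitals.
NEDD9 promoter 1: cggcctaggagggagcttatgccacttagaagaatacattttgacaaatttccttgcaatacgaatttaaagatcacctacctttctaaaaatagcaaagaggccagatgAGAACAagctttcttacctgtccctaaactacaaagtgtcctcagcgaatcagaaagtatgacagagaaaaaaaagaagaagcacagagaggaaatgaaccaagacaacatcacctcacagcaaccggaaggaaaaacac
NEDD9 promoter 3: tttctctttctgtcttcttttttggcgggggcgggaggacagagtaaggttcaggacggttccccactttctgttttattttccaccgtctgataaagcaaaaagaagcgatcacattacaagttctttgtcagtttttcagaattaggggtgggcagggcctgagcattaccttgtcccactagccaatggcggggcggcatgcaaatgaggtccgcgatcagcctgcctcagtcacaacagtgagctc
BCAR1 promoter 1: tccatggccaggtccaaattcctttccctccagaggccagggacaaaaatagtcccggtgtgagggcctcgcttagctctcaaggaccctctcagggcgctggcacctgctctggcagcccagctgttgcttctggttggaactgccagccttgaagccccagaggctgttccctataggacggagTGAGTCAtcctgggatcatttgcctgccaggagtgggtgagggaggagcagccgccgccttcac
The full GRE palindrome, GNACANNNTGTNC, was in none of the 12 member promoters and in 0.327% of the 35116 promoters of this length in the table. The single GRE arm AGAACA was present 140 bases before the start in NEDD9 promoter 1, the same bases fall 178 bases before the start in the overlapping NEDD9 promoter 2, and 12.4% of all promoters hold it. The AP-1 motif TGAGTCA was present 64 bases before the start in BCAR1 promoter 1, and in 4.2% of all promoters. NEDD9 promoter 3 held none of the motifs searched. These are matches of letters in short windows, and GR binding was not analysed here. The paper reports that Dex, but not CpdA, brought GR to a GRE in the regulatory region of NEDD9. In its RT-PCR, NEDD9 mRNA rose with Dex and did not change with CpdA. It places most of the GR sites it found outside promoters.

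The line was recognisable by its markers, with VIM, the mesenchymal filament gene, at 1267 to 1464 RPKM, and ESR1 and PGR at no more than 0.00484 RPKM in any sample. ERBB2 (15.9 to 21.6 RPKM), EPCAM (8.02 to 10.6 RPKM) and GATA3 (3.75 RPKM or more), listed as low markers, were not absent. FKBP5, a standard GR target, was at 5.94 to 7.06 RPKM in vehicle, 203 to 212 RPKM in Dex 4 h and 7.81 to 7.96 RPKM in CpdA 4 h. In the same order TSC22D3 was at 8.22 to 9.79, 305 to 315 and 10.5 to 11.3 RPKM. PER1 was at 1.28 to 2.07, 36.6 to 38.7 and 2.88 to 3.02 RPKM. Sequencing depth is known only relative to the first vehicle sample and reached 1.21 in the deepest sample, with both vehicle samples (1.00 and 1.01) shallower than all 8 treated samples (1.06 and above). Because depth and vehicle treatment coincide, they cannot be told apart.

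NEDD9, the scaffold, was the member with the largest changes. Its RPKM was 32.9 and 18.2 in the vehicle samples, 59.4 and 53.1 in Dex 2 h, 58.5 and 56.2 in Dex 4 h, 41.6 and 38.3 in CpdA 2 h, and 20.0 and 18.0 in CpdA 4 h. All 4 Dex samples were above every other sample, both CpdA 2 h samples were above both vehicle samples, and the CpdA 4 h samples overlapped with vehicle. NEDD9 rose under Dex by 1.20 ± 0.21 (SE) at 2 h (adjusted p = 0.00605) and by 1.23 ± 0.21 at 4 h (adjusted p = 0.00242), a fold of 2.29 and 2.34. Without Dex 2 h replicate 1 the adjusted p at 2 h was 0.0568. Among all genes tested, 1.34% at 2 h and 2.1% at 4 h rose by more than 2-fold with an adjusted p under 0.05. With CpdA the NEDD9 difference from vehicle was 0.70 at 2 h (95% confidence interval 0.22 to 1.18, adjusted p = 0.0925) and -0.36 at 4 h (-0.84 to 0.12, adjusted p = 0.271), neither past the threshold.

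The size of these NEDD9 differences depended on the vehicle sample. The vehicle samples differed from each other 1.80-fold, a gap that 1.31% of the genes tested reached, whereas the other 5 tested members differed between the vehicle samples by at most 1.08-fold. Against vehicle replicate 2 alone, NEDD9 was higher by 1.62 in Dex 2 h, 1.65 in Dex 4 h and 1.13 in CpdA 2 h (adjusted p = 0.000377), and by 0.06 in CpdA 4 h (adjusted p = 0.710). Against vehicle replicate 1 alone, the same differences were 0.77, 0.80 and 0.28 (CpdA 2 h, adjusted p = 0.190), and NEDD9 was lower by a log2 value of -0.79 in CpdA 4 h (adjusted p = 0.00124). The file headers carry 2 h for vehicle replicate 1 and 4 h for vehicle replicate 2, so that time and replicate cannot be told apart in vehicle. In the single-vehicle fits the lone sample is assumed to vary as the replicates of the other groups do. The rise under Dex held against either vehicle sample, whereas the CpdA differences depended on which vehicle sample was used. Against the vehicle sample headed with the same time they were 0.28 at 2 h and 0.06 at 4 h. Against the vehicle sample headed with the other time they were 1.13 at 2 h and -0.79 at 4 h.

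The comparisons that need no vehicle sample gave the NEDD9 levels under the ligands directly. NEDD9 was higher in Dex 4 h than in CpdA 4 h by 1.59 ± 0.21 (adjusted p = 0.000405), a fold of 3.01. At 2 h the Dex minus CpdA difference was 0.49 (95% confidence interval 0.01 to 0.97, adjusted p = 0.195). That interval uses a spread shared by all 5 groups, the vehicle samples included. With only the 4 samples compared, the difference was 0.49 ± 0.06 (adjusted p = 0.00284 by limma). Under Dex the 4 h minus 2 h difference was 0.03 (-0.45 to 0.51, adjusted p = 0.940). Under CpdA NEDD9 fell by 1.07 ± 0.21 from 2 h to 4 h (adjusted p = 0.0139), and the adjusted p rose to between 0.0744 and 0.101 when any 1 of the 4 CpdA samples was left out. The vehicle samples headed 2 h and 4 h were at 32.9 and 18.2 RPKM, so that NEDD9 was lower in the second of them as well. Against vehicle replicate 1 alone (headed 2 h), the difference at 2 h was 0.77 for Dex and 0.28 for CpdA. Against vehicle replicate 2 alone (headed 4 h), the difference at 4 h was 1.65 for Dex and 0.06 for CpdA. The order of the group means was Dex 4 h (57.4 ± 1.63 RPKM, SD, n = 2), Dex 2 h (56.3 ± 4.42), CpdA 2 h (40.0 ± 2.33), vehicle (25.5 ± 10.4) and CpdA 4 h (19.0 ± 1.38). Of the neighbours in that order, none of the 4 pairs differed past the threshold in the main analysis. Dex 2 h against CpdA 2 h did so with only the 4 samples compared.

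**Figure D1:**
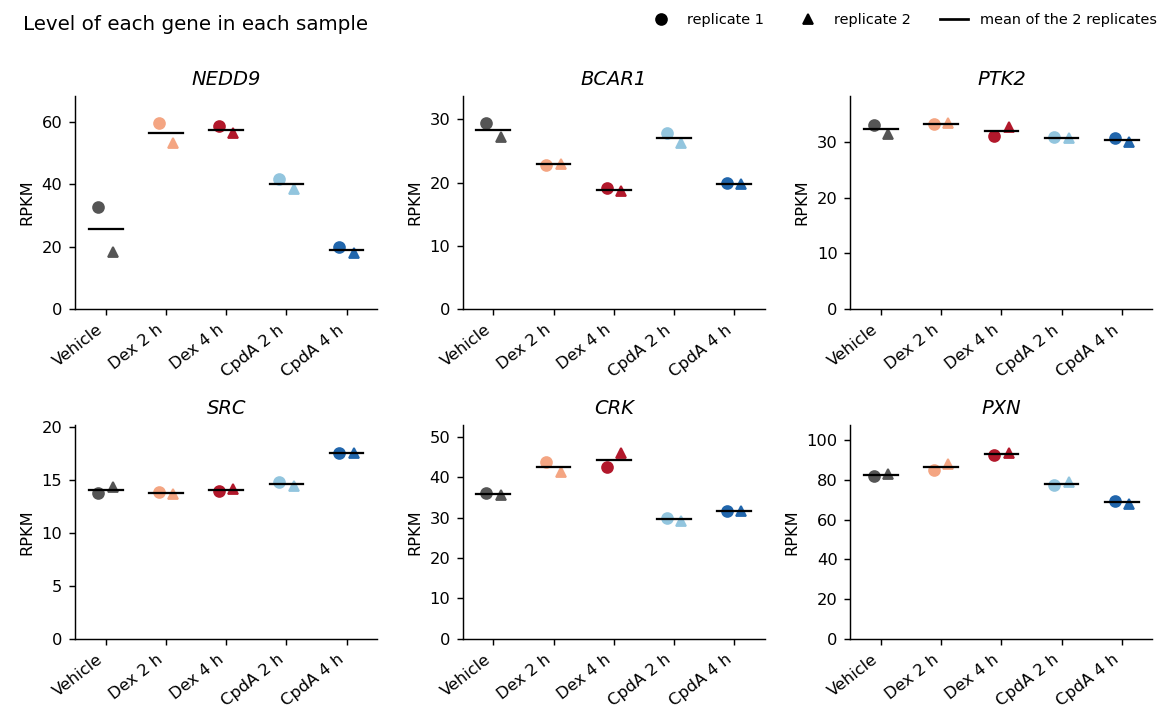
RPKM (y axis, from 0) of the 6 tested members in each of the 10 samples, by group (x axis), with circles for replicate 1, triangles for replicate 2 and a line at the mean. NEDD9 is high in all 4 Dex samples (53.1 to 59.4 RPKM) with its vehicle samples apart at 32.9 and 18.2, and BCAR1 is lowest in Dex 4 h and CpdA 4 h.

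BCAR1, the founding Cas family scaffold, moved the other way under Dex. Its RPKM was 29.4 and 27.2 in vehicle, 22.8 and 23.0 in Dex 2 h, 19.2 and 18.6 in Dex 4 h, 27.8 and 26.2 in CpdA 2 h, and 20.0 and 19.7 in CpdA 4 h. The Dex samples of both times and the CpdA 4 h samples were below both vehicle samples, and the CpdA 2 h samples overlapped with vehicle. BCAR1 fell by 0.30 ± 0.05 in Dex 2 h (adjusted p = 0.00396), by 0.58 ± 0.05 in Dex 4 h (adjusted p = 3.0e-05) and by 0.51 ± 0.05 in CpdA 4 h (adjusted p = 0.000209). These calls held under all 20 alternative analyses. In CpdA 2 h the BCAR1 difference from vehicle was -0.07 (95% confidence interval -0.18 to 0.05, adjusted p = 0.518).

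From 2 h to 4 h BCAR1 fell under both ligands. From Dex 2 h to Dex 4 h it fell by 0.28 ± 0.05 (adjusted p = 0.00793). Without Dex 2 h replicates 1 and 2 the difference was -0.28 and -0.27, and the call was lost. From CpdA 2 h to CpdA 4 h it fell by 0.44 ± 0.05 (adjusted p = 0.00146). BCAR1 was lower in Dex than in CpdA at 2 h by a log2 value of -0.24 ± 0.05 (adjusted p = 0.0122), and the call was lost without Dex 2 h replicate 1 (0.0839), Dex 2 h replicate 2 (0.0688) or CpdA 2 h replicate 1 (0.130). At 4 h the Dex minus CpdA difference was -0.07 (95% confidence interval -0.18 to 0.04, adjusted p = 0.325).

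The balance of the expressed Cas scaffolds is described by the ratio of NEDD9 to BCAR1 RPKM, a measure chosen after the values were seen and given without a test. The ratio was 1.12 and 0.670 in the vehicle samples, 2.60 and 2.31 in Dex 2 h, and 3.05 and 3.02 in Dex 4 h. It was 1.50 and 1.46 in CpdA 2 h and 1.00 and 0.914 in CpdA 4 h. Dex samples thus carried NEDD9 at more than 2 times the level of BCAR1, and in CpdA 4 h the levels of both genes were near 20 RPKM.

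**Figure D2:**
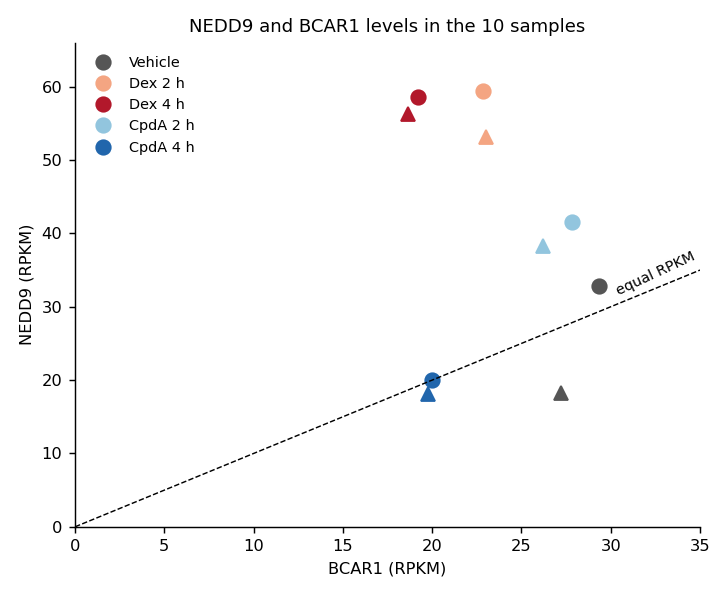
NEDD9 RPKM (y axis) against BCAR1 RPKM (x axis) in the 10 samples, with circles for replicate 1, triangles for replicate 2, colours for the groups and a dashed line where both are equal. The 4 Dex samples lie at the upper left (NEDD9 53.1 to 59.4, BCAR1 18.6 to 23.0 RPKM), the CpdA 4 h samples lie on or just under the line, and the vehicle samples are on either side of it.

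EFS and CASS4, the remaining Cas family genes, were hardly read. EFS was listed at 0 in 4 samples and at 0.00516 to 0.00552 RPKM in 5, and 0.0123 RPKM in vehicle replicate 2. After scaling by relative depth the 5 low values agreed within 1% and the vehicle value was 2 times as large, as 1 read and 2 reads would be. EFS did not reach 0.5 RPKM in 2 samples and was not tested, so 6 of the 7 members entered the tests. CASS4 was at no more than 0.0258 RPKM and was not tested either. At this depth no difference in EFS or CASS4 was detectable.

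PTK2, which encodes focal adhesion kinase, stayed within 30.0 to 33.2 RPKM over the 10 samples. Its differences from vehicle were 0.04 in Dex 2 h (95% confidence interval -0.05 to 0.14), -0.02 in Dex 4 h (-0.11 to 0.08), -0.07 in CpdA 2 h (-0.16 to 0.02) and -0.09 in CpdA 4 h (-0.18 to 0.01), with adjusted p between 0.189 and 0.807. In none of the 8 comparisons was PTK2 past the threshold, and the unadjusted p was under 0.05 in 1 of them, Dex 2 h against CpdA 2 h (0.11, unadjusted p = 0.0229, adjusted p = 0.120). Its paralogue PTK2B was read at a lower level (2.56 to 3.69 RPKM) and fell by 0.32 ± 0.07 in Dex 4 h (adjusted p = 0.0105). That call was lost under quantile normalization and with only the 4 samples compared. PTK2B differed from vehicle by -0.10 in Dex 2 h (adjusted p = 0.508), 0.11 in CpdA 2 h (0.474) and -0.20 in CpdA 4 h (0.0848). Between Dex 4 h and CpdA 4 h its difference was -0.12 (adjusted p = 0.260).

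SRC, the tyrosine kinase that phosphorylates the Cas substrate domain, rose in CpdA 4 h and was not past the threshold against vehicle in the other treatments. Its RPKM was 13.8 and 14.3 in vehicle, 13.9 and 13.7 in Dex 2 h, 14.0 and 14.2 in Dex 4 h, 14.8 and 14.4 in CpdA 2 h, and 17.6 in both CpdA 4 h samples. The CpdA 4 h samples were above the other 8 samples, which lay within 13.7 to 14.8 RPKM. SRC rose by 0.32 ± 0.04 in CpdA 4 h against vehicle (adjusted p = 0.000866) and by 0.26 ± 0.04 from CpdA 2 h to CpdA 4 h (adjusted p = 0.00588, and 0.0508 to 0.0685 with any 1 of these 4 samples left out). It was lower in Dex 4 h than in CpdA 4 h by a log2 value of -0.32 ± 0.04 (adjusted p = 0.000355). Against vehicle the SRC differences were -0.03 (95% confidence interval -0.12 to 0.07) in Dex 2 h, 0.00 (-0.09 to 0.10) in Dex 4 h and 0.06 (-0.04 to 0.15) in CpdA 2 h.

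CRK, the adaptor recruited by phosphorylated Cas and paxillin, moved in opposite directions under the ligands. Its RPKM was 36.0 and 35.6 in vehicle, 43.7 and 41.3 in Dex 2 h, 42.6 and 46.0 in Dex 4 h, 29.9 and 29.2 in CpdA 2 h, and 31.7 in both CpdA 4 h samples. All Dex samples were above and all CpdA samples below the vehicle samples. CRK rose by 0.24 ± 0.05 in Dex 2 h (adjusted p = 0.00962) and by 0.30 ± 0.05 in Dex 4 h (adjusted p = 0.00129), and fell by 0.28 ± 0.05 in CpdA 2 h (adjusted p = 0.0107) and by 0.17 ± 0.05 in CpdA 4 h (adjusted p = 0.0306).

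The weakest of these CRK calls was CpdA 4 h, which held under 10 of 20 alternative analyses. Without vehicle replicate 1 its adjusted p was 0.107 and without replicate 2 it was 0.0749. Without vehicle replicate 2 the adjusted p of CRK also exceeded 0.05 in Dex 2 h (0.0554) and in CpdA 2 h (0.0501). So it did in Dex 2 h without Dex 2 h replicate 1 (0.101), and in CpdA 2 h without CpdA 2 h replicate 1 (0.0753) or 2 (0.103). The direct contrasts of CRK held under all 20 alternatives, with Dex above CpdA by 0.52 ± 0.05 at 2 h (adjusted p = 7.6e-05) and by 0.48 ± 0.05 at 4 h (adjusted p = 6.2e-05). Between the time points CRK did not pass the threshold, at 0.06 (95% confidence interval -0.05 to 0.17) under Dex and 0.10 (-0.01 to 0.21) under CpdA. Its paralogue CRKL, at 13.3 to 17.0 RPKM, fell by 0.30 ± 0.06 in CpdA 4 h (adjusted p = 0.00812) and was at -0.06 in Dex 2 h (adjusted p = 0.679) and -0.17 in Dex 4 h (adjusted p = 0.0675), neither past the threshold.

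PXN was the most highly expressed member in every group. Its RPKM was 81.8 and 82.8 in vehicle, 84.9 and 87.9 in Dex 2 h, 92.4 and 93.6 in Dex 4 h, 77.5 and 78.9 in CpdA 2 h, and 69.6 and 67.7 in CpdA 4 h. The Dex samples were above and the CpdA samples below vehicle, with no overlap between any of the 5 groups. PXN rose by 0.18 ± 0.04 in Dex 4 h (adjusted p = 0.0069) and fell by 0.26 ± 0.04 in CpdA 4 h (adjusted p = 0.0014). At 2 h the differences from vehicle were 0.07 with Dex (adjusted p = 0.327) and -0.07 with CpdA (adjusted p = 0.311).

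In the direct contrast PXN was higher in Dex than in CpdA by 0.44 ± 0.04 at 4 h (adjusted p = 2.2e-05) and by 0.14 ± 0.04 at 2 h (adjusted p = 0.0317). The 2 h call was lost when any 1 of the 4 samples compared was left out (adjusted p 0.0768 to 0.227). PXN fell by 0.19 ± 0.04 from CpdA 2 h to CpdA 4 h (adjusted p = 0.0137, and 0.0770 to 0.126 with any 1 of these 4 samples left out), and its change from Dex 2 h to Dex 4 h was 0.11 (adjusted p = 0.0923). The antisense gene PXN-AS1 shares 1769 exonic bases with PXN, 23.7% of its exonic bases (GRCh37, GENCODE), so reads of this pair cannot be told apart unless counting used strand, which is not stated. PXN-AS1 itself was at 1.21 to 2.25 RPKM. Of the paxillin relatives, LPXN fell in Dex 2 h by 0.77 ± 0.16 (adjusted p = 0.0168) and in Dex 4 h by 0.80 ± 0.16 (adjusted p = 0.00602), with vehicle samples at 5.38 and 8.09 RPKM. In Dex 2 h its adjusted p was 0.0503 without vehicle replicate 2, and 0.112 and 0.0737 without Dex 2 h replicates 1 and 2. TGFB1I1 was at 43.7 and 34.2 RPKM in Dex 4 h and at 31.0 and 29.9 RPKM in CpdA 4 h, a difference of 0.35 ± 0.09 (adjusted p = 0.0180, and 0.0610 and 0.102 without CpdA 4 h replicates 1 and 2). Against vehicle its difference in Dex 4 h was 0.28 (adjusted p = 0.0519).

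**Figure D3:**
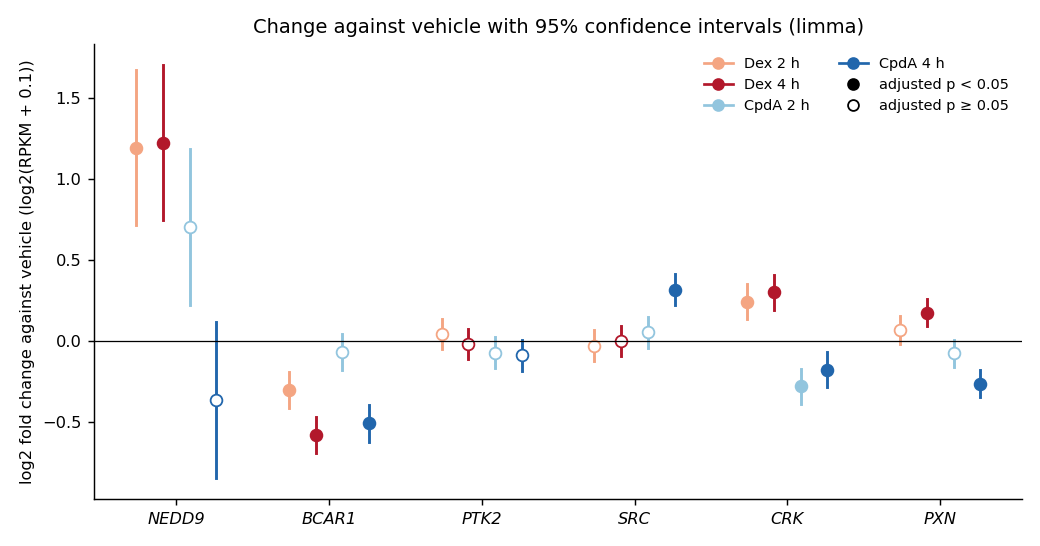
Log2 fold change against vehicle (y axis, on log2(RPKM + 0.1)) of the 6 tested members (x axis) under each treatment, with limma's 95% confidence intervals and filled points where the adjusted p was under 0.05. NEDD9 has the largest changes (1.20 and 1.23 under Dex) and the widest intervals, CRK is above 0 with Dex and below 0 with CpdA, and PTK2 has no filled point.

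Counted by comparison, 3 of the 6 members tested changed in Dex 2 h (NEDD9 and CRK higher, BCAR1 lower), where 10.3% of all genes tested did. In Dex 4 h, 4 of 6 changed (NEDD9, CRK and PXN higher, BCAR1 lower), beside 27.4% of all genes. In CpdA 2 h it was 1 of 6 (CRK lower), beside 6.18%. In CpdA 4 h it was 4 of 6 (SRC higher, BCAR1, CRK and PXN lower), beside 20.5%. The median log2 difference from vehicle over the 6 members was 0.06, 0.09, -0.07 and -0.22 in Dex 2 h, Dex 4 h, CpdA 2 h and CpdA 4 h, and over all genes it was between -0.05 and -0.02. These 4 comparisons share their vehicle samples.

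Between the ligands at 2 h, 3 of 6 members differed (CRK and PXN higher with Dex, BCAR1 lower), beside 13.7% of all genes. At 4 h it was 4 of 6 (NEDD9, CRK and PXN higher with Dex, SRC lower), beside 33.4%. From 2 h to 4 h, 1 of 6 changed under Dex (BCAR1 lower), beside 13.6%, and 4 of 6 under CpdA (SRC higher, NEDD9, BCAR1 and PXN lower), beside 12.4%. The doses of Dex and CpdA differ, so these contrasts compare the treatments as given. With 6 genes, a count of 3 or 4 against a background of this size is a description of the members and was not tested as a set.

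The wider pathway was read from lists of other focal adhesion genes. Of 33 signalling partners (Cas-binding exchange factors, SRC family kinases and adaptors), 26 were tested. In Dex 2 h, 1 rose and 1 fell (7.69% of those tested beside 10.3% of all genes), BCAR3, which binds BCAR1 and NEDD9, by 0.35 ± 0.06 (adjusted p = 0.00383) and RASA1, a GTPase-activating protein for RAS, by -0.27 ± 0.04 (adjusted p = 0.00276). In Dex 4 h, 3 rose and 3 fell, which is 23.1% beside 27.4% of all genes, and 15 were called without Dex 4 h replicate 2 and 1 with only the 4 samples compared. The largest of these changes was that of RASA1, which went from 36.5 ± 0.499 RPKM in vehicle to 17.7 ± 0.370 RPKM and fell by 1.04 ± 0.04 (adjusted p = 2.3e-07). The SRC family kinase LYN fell by 0.33 ± 0.06 in Dex 4 h (adjusted p = 0.00266), and the adaptor SHC1 rose by 0.23 ± 0.05 (adjusted p = 0.00608). BCAR3 (0.20, adjusted p = 0.0306) and the GTPase CDC42 (0.17, adjusted p = 0.0295) rose as well, but BCAR3 lost the call without vehicle replicate 2 (adjusted p = 0.158) and CDC42 without either vehicle sample (0.103 and 0.0814).

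In CpdA 2 h, 1 signalling partner rose and none fell (3.85% beside 6.18% of all genes), BCAR3 by 0.23 (adjusted p = 0.0497, and 0.234 without vehicle replicate 2). In CpdA 4 h, 1 rose and 5 fell, which is 23.1% beside 20.5% of all genes. The count was 2 and 3 without CpdA 4 h replicates 1 and 2, 3 without vehicle replicate 1, and 13 without either Dex 4 h sample. NCK1, an adaptor that links phosphotyrosines to actin assembly, rose by 0.33 ± 0.07 (adjusted p = 0.00698). SH2D3A, an exchange factor homologue that binds Cas proteins, fell by 0.38 ± 0.10 (adjusted p = 0.0244, and 0.126 without vehicle replicate 1) and TRIP6, a LIM domain adaptor, by 0.27 ± 0.08 (adjusted p = 0.0434, and 0.192 without vehicle replicate 1). The median log2 difference over the 26 genes was between -0.09 and -0.02 in the 4 comparisons with vehicle.

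Of 35 structural and linker genes of the adhesion, 31 were tested. In Dex 4 h, 7 rose and 6 fell, which is 41.9% of those tested beside 27.4% of all genes, and 12 and 9 changed without vehicle replicates 1 and 2. VCL, which encodes the actin linker vinculin, went from 111 ± 4.08 RPKM in vehicle to 156 ± 1.65 in Dex 2 h and 220 ± 21.9 in Dex 4 h, a rise of 0.49 ± 0.06 (adjusted p = 0.000706) and 0.98 ± 0.06 (adjusted p = 3.5e-06). TNS2, a tensin that links integrins to actin, rose by 0.45 ± 0.11 in Dex 2 h (adjusted p = 0.0387, and 0.194 without vehicle replicate 2) and by 0.85 ± 0.11 in Dex 4 h (adjusted p = 0.000541). The LIM domain gene FHL2 fell by 0.46 ± 0.07 in Dex 2 h (adjusted p = 0.00269) and by 0.85 ± 0.07 in Dex 4 h (adjusted p = 2.6e-05). ZYX, which encodes the actin regulator zyxin, fell by 0.43 ± 0.09 in Dex 2 h (adjusted p = 0.0124, and 0.101 without vehicle replicate 2). In Dex 2 h the count was 2 higher and 4 lower, which is 19.4% beside 10.3% of all genes, and it was 1 and 1 without vehicle replicate 2 or either Dex 2 h sample.

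In CpdA 2 h, 1 structural gene changed (3.23% beside 6.18% of all genes), FERMT2, a kindlin that activates integrins, by 0.31 ± 0.07 (adjusted p = 0.0267, and 0.0798 without vehicle replicate 2). In CpdA 4 h, 2 rose and 4 fell, which is 19.4% beside 20.5% of all genes, and 3 were called without CpdA 4 h replicate 1. The tensin TNS4 was at 0.683 ± 0.104 RPKM in vehicle, 1.04 ± 0.0673 in Dex 4 h and 0.203 ± 0.0358 in CpdA 4 h. It rose by 0.55 ± 0.17 in Dex 4 h (adjusted p = 0.0394, and 0.175 without vehicle replicate 2) and fell by 1.37 ± 0.17 in CpdA 4 h (adjusted p = 0.000647), from an RPKM low enough for the pseudocount to alter its fold change, which ran from -0.48 to -1.71 over the alternatives. TES, which encodes the LIM protein testin, rose by 0.42 ± 0.04 in CpdA 4 h (adjusted p = 0.000334), and TNS3, another tensin, fell by 0.55 ± 0.11 (adjusted p = 0.00668). FERMT1, also a kindlin, fell by 0.57 ± 0.13 in CpdA 4 h (adjusted p = 0.0163, and 0.0809 without vehicle replicate 2) and by 0.50 ± 0.13 in Dex 4 h (adjusted p = 0.0216, and 0.0554 and 0.106 without vehicle replicates 1 and 2). FERMT3, the kindlin of blood cells, rose by 0.93 ± 0.18 in CpdA 4 h (adjusted p = 0.00674), from 0.634 ± 0.0531 to 1.30 ± 0.0927 RPKM. Without CpdA 4 h replicate 1 the call of TNS3 was lost, and the adjusted p was 0.0627 for FERMT3, 0.0713 for CRKL and 0.0771 for NCK1. Of the calls named from both adhesion lists, those of BCAR3 in Dex 2 h, RASA1, VCL and FHL2 at both Dex times, TNS2 in Dex 4 h and TES in CpdA 4 h held under all 20 alternatives. The median log2 difference from vehicle over the 31 genes was between -0.06 and 0.04 in the 4 treatments.

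**Figure D4:**
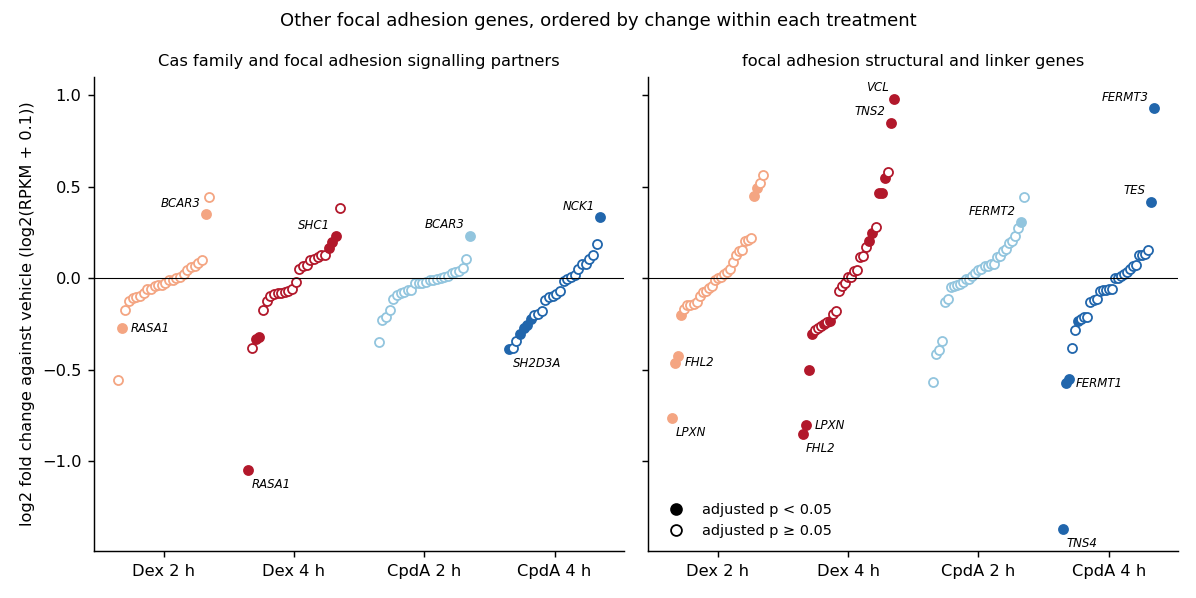
Log2 fold change against vehicle (y axis) of 26 signalling partners (left) and 31 structural and linker genes (right), ordered by size within each treatment (x axis), with filled points where the adjusted p was under 0.05. VCL and TNS2 are highest and FHL2 and LPXN lowest among the structural genes in Dex 4 h, RASA1 is the lowest signalling partner in Dex 4 h, and few points are filled in CpdA 2 h.

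Outside the adhesion, NEDD9 has partners in mitosis and protein turnover, and 3 of these were tested. Of them SMURF2, a ubiquitin ligase known to stabilise NEDD9, and AURKA are named here after their values were seen. SMURF2 was at 91.0 RPKM on average in vehicle, 47.3 in Dex 2 h, 28.8 in Dex 4 h, 63.3 in CpdA 2 h and 48.8 in CpdA 4 h, and fell in all 4 treatments, by 0.94, 1.66, 0.52 and 0.90 (adjusted p from 6.8e-08 to 0.000887), also under all 20 alternatives. AURKA fell by 0.67 ± 0.04 in CpdA 4 h (adjusted p = 1.3e-05), from 38.2 to 23.9 RPKM, and by 0.17 ± 0.04 in CpdA 2 h (adjusted p = 0.0287, and 0.0662 and 0.0857 without vehicle replicates 1 and 2). ITCH, a ubiquitin ligase that binds NEDD9, was past the threshold in none of the 8 comparisons (adjusted p 0.268 and above).

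The genes whose pattern over the 10 samples was most like that of NEDD9 were EDN1 (Pearson's r = 0.98), NUDT13 (0.98), OPRL1 (0.97), WBP4 (0.97) and MCL1 (0.97), of 12712 genes compared, 85 of which had an r above 0.9. EDN1, which encodes the peptide endothelin, also had vehicle samples apart at 22.7 and 10.2 RPKM, with 45.7 and 42.6 RPKM in Dex 2 h and 8.05 and 7.23 RPKM in CpdA 4 h. MCL1, an anti-apoptotic member of the BCL family, was at 101 and 84.8 RPKM in vehicle, 158 and 171 RPKM in Dex 4 h and 88.3 and 88.5 RPKM in CpdA 4 h. Ranked by Spearman's rho, none of these 5 genes was among the 5 most alike. Among the members, Pearson's r with NEDD9 was 0.78 for PXN, 0.64 for CRK, 0.57 for PTK2, -0.13 for BCAR1 and -0.72 for SRC. These are descriptions over 10 samples that share groups and vehicle, with no test.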

How the data were processed

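RNA from MDA-MB-231 cells (5 groups of 2 replicates, described as biological by the study) was sequenced as single-end reads. The authors aligned reads with TopHat 2.0.13 and Bowtie, derived gene abundances with the defaults of Partek 6.6 (versions and hg19 per the labels), and deposited RPKM for 20668 gene symbols per sample. Whether counting used strand is not given in the sources used here. No read totals were used, so no counting intervals are given, and relative depth came from the RPKM step worth 1 read.

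The scale was log2(RPKM + 0.1), and the 12713 genes that reached 0.5 RPKM in 2 or more samples were tested. One limma 3.58.1 model (R 4.3.3) over the 5 groups, with 5 residual degrees of freedom and eBayes with an abundance trend, gave 8 contrasts, with Benjamini-Hochberg adjustment over all genes tested. With 2 samples a group, no permutation test of 1 gene can reach 0.05, and p-values measure the spread between these cultures. A pseudocount of 0.1 understates changes of genes with low levels. The model was run on simulated data whose changes were larger than any member change against vehicle, so smaller changes were not covered.

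The members and lists were chosen with earlier results of these data known. Named genes were all 7 members, the 3 largest called increases and decreases per list and treatment with no overlap between the treated and the vehicle samples, CASS4, PTK2B, CRKL, TGFB1I1 and LPXN, and the 5 genes with the highest Pearson's r to NEDD9. Alternatives were pseudocounts of 1 and 0.01, other filters, quantile and median scaling, no trend or no moderation of the variance, fits to only the 4 samples compared, the replicate number as a block and each sample left out. Promoters came from RefSeq (GRCh38.p14) and gene positions from GENCODE (GRCh37). Duplicates had at most 1 identical nonzero value. Tables were made with Python 3.11.15, pandas 2.3.3 and numpy 2.4.6, and figures with matplotlib 3.10.9.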

Additional observations from a re-analysis of the deposited data

Results flagged for a closer look

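The level under a treatment differed between 2 h and 4 h, by the limma contrast of the time points, for 5 member results. Under CpdA, NEDD9 went down from 2 h to 4 h by a log2 value of -1.07 (adjusted p = 0.0139), BCAR1 by -0.44 (adjusted p = 0.00146) and PXN by -0.19 (adjusted p = 0.0137), while SRC went up by 0.26 (adjusted p = 0.00588). Under Dex, BCAR1 went down from 2 h to 4 h by -0.28 (adjusted p = 0.00793). These contrasts use no vehicle sample, so that a change with time in vehicle is not removed. Against the vehicle sample headed with the same time, the NEDD9 difference under CpdA was 0.28 at 2 h and 0.06 at 4 h. In each of the 5 results both 4 h samples lay on the same side of both 2 h samples. The same samples had selected these results, so this adds no further evidence, and its share over all genes was not computed. With 1 of the compared samples left out, the adjusted p of the CpdA results for NEDD9, SRC and PXN exceeded 0.05, as did that of BCAR1 under Dex without either Dex 2 h sample, and that of BCAR1 under CpdA stayed at 0.0260 or lower.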

How the results depend on the processing

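Over 20 alternatives and 8 comparisons, 905 of 960 member values kept their side of the threshold, 46 lost the call and 9 gained it. The sign changed for 9 values, none of them called in either analysis. By group of settings, the number of members called became 2 instead of 1 for Dex 4 h against Dex 2 h with median scaling, 0 instead of 1 for CpdA 2 h against vehicle with no moderation of the variance, and 5 instead of 3 for Dex 2 h against CpdA 2 h with only the 4 samples compared. Same-numbered samples deviated from their group means with correlations of -0.06 to 0.20, so the numbers were not used as pairs. With the replicate block it became 2 for CpdA 2 h against vehicle (NEDD9 0.70, adjusted p = 0.0489), with no other member's call changed, and the counts over all genes stayed within 1.5 times. With 1 sample left out, which leaves a group with 1 sample assumed to vary like the others, the number of members called was 1 to 3 for Dex 2 h, 4 for Dex 4 h, 0 to 2 for CpdA 2 h and 3 to 4 for CpdA 4 h against vehicle, 1 to 4 for Dex 2 h against CpdA 2 h, 4 for Dex 4 h against CpdA 4 h, 0 to 1 for Dex 4 h against Dex 2 h and 1 to 4 for CpdA 4 h against CpdA 2 h. The call of NEDD9 in Dex 2 h was lost with no moderation of the variance (adjusted p = 0.0812) and without Dex 2 h replicate 1 (0.0568), and that of PXN in Dex 4 h with only the 4 samples compared (0.126). CRK in CpdA 4 h was lost in 10 alternatives, also under quantile normalization (0.0736) and median scaling (0.134). By Spearman's rho, 0 of the 5 genes most like NEDD9 remained. The cause was not tested. Over all genes, the number called ranged from 766 to 1710 in Dex 2 h (main analysis 1311), 1775 to 4772 in Dex 4 h (3487), 216 to 1446 in CpdA 2 h (786) and 1190 to 3637 in CpdA 4 h (2609) against vehicle. It ranged from 959 to 2513 in Dex 2 h against CpdA 2 h (1743), 2759 to 5183 in Dex 4 h against CpdA 4 h (4241), 592 to 3440 in Dex 4 h against Dex 2 h (1725) and 261 to 3500 in CpdA 4 h against CpdA 2 h (1577). Of 240 counts over the gene lists, computed after seeing the data, 56 moved by over 1.5 times. Without a read total, the depth limits of low genes such as EFS cannot be given as intervals.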
